A study of Mus musculus with 2 samples.

Results

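The miR-15/16 family was examined through the 6 miRNA genes Mir15a, Mir16-1, Mir15b, Mir16-2, Mir195a and Mir497, which lie in 3 clusters of 2 genes. They were chosen by gene name, as the rows of 2 deposited count tables whose Ensembl identifiers carry these symbols in GENCODE M21, and they make up 6 of the 2202 miRNA genes listed. MicroRNA-seq libraries had been prepared from hippocampal tissue of male B6CASTF1/J mice at 2 months of age. B6CASTF1/J is the hybrid of C57BL/6J females and CAST/EiJ males, and the counts do not separate the parental alleles. The series holds 1 untreated group of 2 biological replicates, from separate biosamples under a single donor entry. Spread between them may therefore not cover spread between animals, and there was no condition to compare.

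MicroRNAs are cut from hairpin precursors and direct the silencing of messenger RNAs that match their seed, bases 2 to 8 of the mature strand. The miR-15/16 family is known for repressing cyclins, cyclin-dependent kinases and the survival factor Bcl2, and the human counterpart of the Mir15a and Mir16-1 locus is often deleted in chronic lymphocytic leukaemia. In the brain, miR-16 has been studied as a repressor of the serotonin transporter, and miR-195 is best known from the heart, where it acts in the withdrawal of muscle cells from the cell cycle after birth.

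The mature 5p strands are shown first because they define the family. They are given 5′ to 3′ from RefSeq (GRCm38.p6), with the seed in capitals, and all 6 genes matched an entry.
miR-15a-5p, from Mir15a: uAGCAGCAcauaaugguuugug
miR-15b-5p, from Mir15b: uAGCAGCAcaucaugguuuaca
miR-16-5p, from both Mir16-1 and Mir16-2: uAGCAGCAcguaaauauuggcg
miR-195a-5p, from Mir195a: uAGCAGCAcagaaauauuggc
miR-497a-5p, from Mir497: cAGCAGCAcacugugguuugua

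One seed, AGCAGCA, is common to all 5 sequences, and it occurs in 11 of the 1058 genes that have a mature entry. The sequences part company behind it. Counting from 1 at the 5′ end, miR-16-5p and miR-195a-5p are the closest pair, with 19 of 21 compared bases identical and the differences G10A and U11G. The closest relative of miR-15a-5p is miR-15b-5p, with 18 of 22 bases identical. The least alike are miR-16-5p and miR-497a-5p, with 11 of 22.

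The 3p strands, from the other side of each hairpin, carry 6 different seeds among the 6 genes. Those of the Mir16 genes are shown because they are where the products of these loci can be told apart.
miR-16-1-3p, from Mir16-1: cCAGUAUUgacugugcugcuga
miR-16-2-3p, from Mir16-2: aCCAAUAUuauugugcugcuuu

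Mir16-1 and Mir16-2 share a stretch of 23 nt, which is the whole of miR-16-5p and 1 further base at its 3′ end. A read of miR-16-5p therefore matches both genes equally well. The deposited tables kept multimapping reads apart from all gene counts, and these reads made up 42.6% of replicate 1 and 46.0% of replicate 2. How many of them were miR-16 was not measured, so the counts of both Mir16 genes are uncertain and cannot stand for the amount of miR-16. No other gene in the RefSeq table held a mature strand of Mir15a, Mir15b, Mir195a or Mir497. Mir15a had no hairpin entry in that table, so hairpins were compared without it. Among the hairpins present, the longest shared stretch was 10 nt for Mir15b (with Mir195b), 16 nt for Mir195a (with Mir195b) and 12 nt for Mir497 (with Mir3075). The value for Mir15b thus leaves out its likeness to Mir15a, since miR-15a-5p and miR-15b-5p first differ at base 12.

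The clusters lie on 3 chromosomes (mm10). Mir15a (ENSMUSG00000093007.1, chromosome 14, positions 61632027 to 61632110, minus strand) lies in an intron of the noncoding gene Dleu2. Mir16-1 (ENSMUSG00000092995.1, positions 61631880 to 61631972) is 54 nt away on the same strand and overlaps an annotated exon of Dleu2. Mir15b (ENSMUSG00000065580.2, chromosome 3, positions 69009772 to 69009835, plus strand) and Mir16-2 (ENSMUSG00000065606.1, positions 69009902 to 69009996) lie 66 nt apart in an intron of Smc4, which encodes a condensin subunit. Mir497 (ENSMUSG00000105220.1, chromosome 11, positions 70234717 to 70234800, plus strand) and Mir195a (ENSMUSG00000065411.2, positions 70235042 to 70235135) lie 241 nt apart. Neither overlaps a host gene on its own strand in M21. All 84 nt of Mir497 are covered by Mir497b, an miRNA gene annotated on the opposite strand.

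Counts on miRNA genes summed to 2322520 in replicate 1 and 3414105 in replicate 2, out of 6441333 and 10003856 reads. Levels are given as CPM, counts scaled to a sum of 1000000 over the miRNA genes of a library. Each read is a whole small RNA, so CPM was not divided by gene length. Placed reads from both arms of a hairpin are summed. Multimapping reads are left out, so the mature strand that both Mir16 genes share may be largely missing from their counts. Intervals are Wilson 95% intervals and cover counting error only. Of the neuronal markers 10 of 12 were detected, that is at 2 CPM or more in both libraries, with Mir132 at 10916 CPM and Mir137 at 10433 CPM. The Mir124a genes, known neuronal markers made at several loci, were close to 0, with Mir124a-1 at 2.90 CPM. Multimapping reads are left out of these values too, so they do not give the amount of miR-124.

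Every gene of the family was detected, as were 401 of all 2202 listed genes. Together the 6 genes held 0.339% of miRNA-gene counts in replicate 1 (interval 0.332 to 0.347) and 0.528% in replicate 2 (0.520 to 0.536), a mean of 4335 ± 1336 CPM (SD, n = 2). Of the 6 genes, 5 lay above 87.0 CPM, the median of the 401 detected genes. By CPM of placed reads, the order Mir195a, Mir497, Mir15a, Mir16-1, Mir15b, Mir16-2 was the same in both libraries.

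The Mir497 and Mir195a cluster had the highest CPM of placed reads, at 3212 ± 1394 CPM (SD, n = 2). Mir195a had 2924 counts in replicate 1, or 1259 CPM (1214 to 1305), and 10429 counts in replicate 2, or 3055 CPM (2997 to 3114). Its rank among all listed genes was 79 in replicate 1 and 49 in replicate 2. These intervals are far apart, and no other family gene had so wide a spread, with a coefficient of variation of 58.9%. Mir497 had 2245 counts, or 967 CPM (927 to 1007), in replicate 1 and 3902 counts, or 1143 CPM (1108 to 1179), in replicate 2. Its ranks of 89 and 87 were nearly equal. The gap between the mean levels of Mir195a and Mir497 was 1102 CPM, less than the 1270 CPM SD of Mir195a. Within libraries, their mean log2 ratio was 0.90 with an SD of 0.73. Mir195a was thus higher in both libraries, but by less than 2 SD of that ratio.

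The Mir15a and Mir16-1 cluster came next, at 873 ± 46.2 CPM (SD, n = 2). Mir15a had 1217 counts in replicate 1, or 524 CPM (495 to 554), and 1529 in replicate 2, or 448 CPM (426 to 471). Mir16-1 had 887 and 1341 counts, or 382 CPM (358 to 408) and 393 CPM (372 to 414). Mir15a was the higher of the pair in both libraries, but by less than 2 SD of their log2 ratio.

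The Mir15b and Mir16-2 cluster was the lowest, at 250 ± 12.0 CPM (SD, n = 2). Mir15b had 437 and 588 counts in replicates 1 and 2, or 188 CPM (171 to 207) and 172 CPM (159 to 187). Mir16-2 had 163 and 236 counts, or 70.2 CPM (60.2 to 81.8) and 69.1 CPM (60.9 to 78.5). The CPM of Mir16-2 was almost the same in both libraries. It was the lowest of the family by placed reads, 17.9-fold below Mir195a in replicate 1 and 44.2-fold below it in replicate 2. Mir497 over Mir15a, Mir16-1 over Mir15b and Mir15b over Mir16-2 were the steps in the order that exceeded 2 SD of the log2 ratio. Multimapping reads are not in these counts, so places of the Mir16 genes and their clusters in the order do not give amounts of miR-16.

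**Figure D1:**
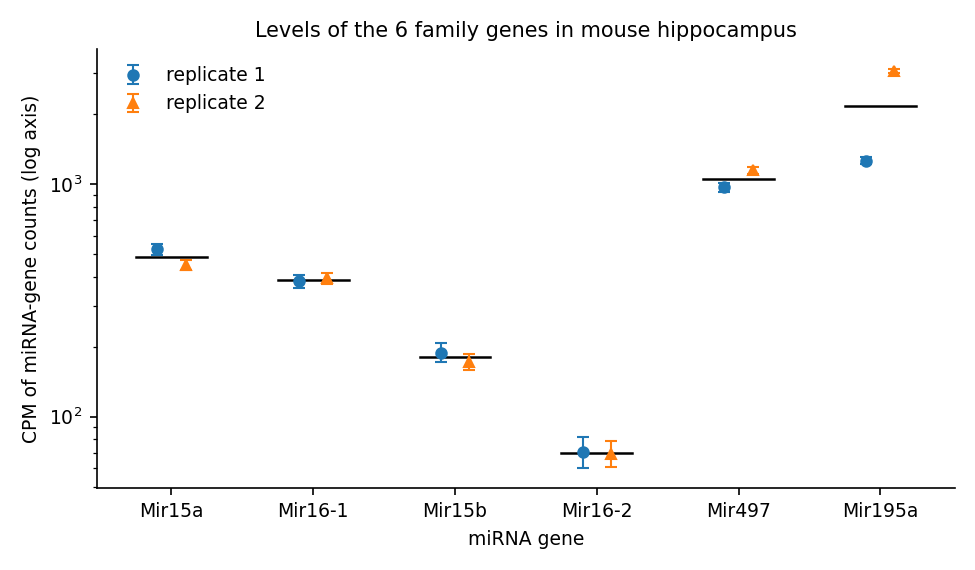
Level of each family gene in CPM of miRNA-gene counts (log axis) in replicate 1 (circles) and replicate 2 (triangles), with Wilson 95% intervals and the mean as a black line. Mir195a is the only gene whose replicates lie far apart, at 1259 and 3055 CPM, and Mir16-2 is the lowest, near 70 CPM. Multimapping reads are not in these counts, which leaves the levels of both Mir16 genes uncertain.

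The clusters differed in how evenly their genes were represented. In the Mir15a and Mir16-1 cluster, Mir15a gave 57.8% of the counts in replicate 1 (55.7 to 59.9) and 53.3% in replicate 2 (51.4 to 55.1), a mean ratio of 1.25-fold. In the Mir15b and Mir16-2 cluster, Mir15b gave 72.8% (69.1 to 76.2) and 71.4% (68.2 to 74.3), a mean ratio of 2.58-fold. In both clusters and both libraries the Mir16 gene had the lower count. Multimapping reads are not in these counts, so the ratios describe placed reads and not the balance of the mature miRNAs. Of the combined counts of Mir195a and Mir497, Mir195a gave 56.6% in replicate 1 (55.2 to 57.9) and 72.8% in replicate 2 (72.0 to 73.5). The balance of this cluster thus changed between the libraries, from 1.30-fold to 2.67-fold.

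Neighbouring miRNA genes elsewhere in the annotation served as a background for these ratios. Among 88 other pairs of adjacent genes on the same strand, at most 10 kb apart and both detected, the median ratio was 8.15-fold, and 14 pairs (15.9%) lay within 2-fold. By the mean of both libraries, Mir15a with Mir16-1 and Mir195a with Mir497 lay within 2-fold, and Mir15b with Mir16-2 did not. For Mir195a with Mir497 this held in replicate 1 (1.30-fold) but not in replicate 2 (2.67-fold). The mean ratio was wider than that of Mir15a to Mir16-1 in 82 of the other pairs, than that of Mir195a to Mir497 in 75 and than that of Mir15b to Mir16-2 in 66. Between the libraries the log2 ratio of the other pairs changed by a median of 0.45. It changed by 1.04 for Mir195a and Mir497, a size exceeded in 10 of the 88 other pairs, by 0.27 for Mir15a and Mir16-1 and by 0.10 for Mir15b and Mir16-2. Pairs are a description here and were not tested, since they share libraries and neighbours may share a precursor.

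**Figure D2:**
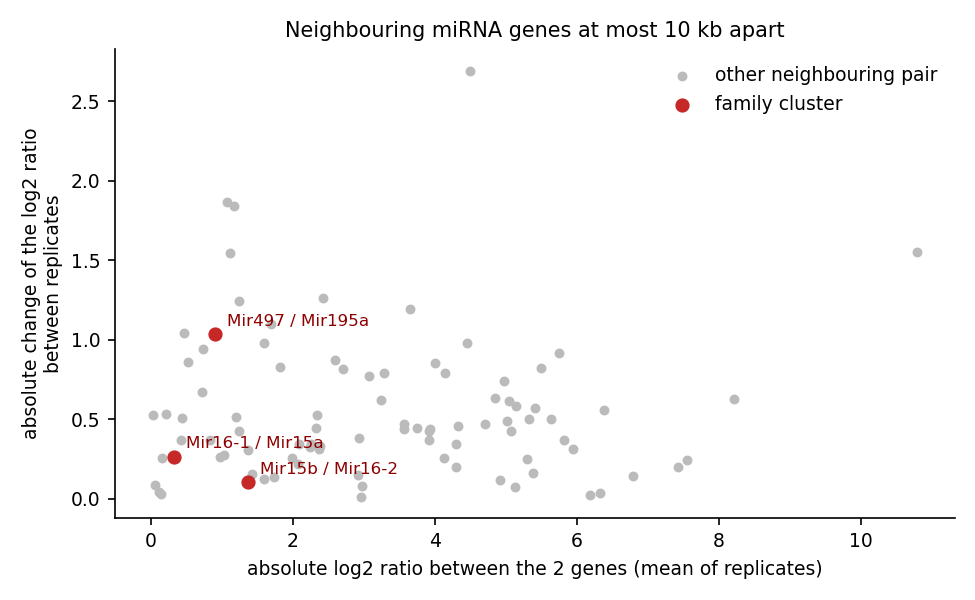
Each point is a pair of adjacent detected miRNA genes on 1 strand, at most 10 kb apart. The x axis gives the absolute log2 ratio of their counts (mean of replicates) and the y axis the absolute change of that log2 ratio between replicates. The 3 family clusters (red) lie among the 88 other pairs (grey), below their median ratio of 8.15-fold, and the Mir497 and Mir195a pair stands higher than the other family clusters, at a change of 1.04.

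To set these differences against counting error, the counts of each gene in replicates 1 and 2 entered an exact binomial test (two-sided), with TMM effective library sizes (a scaling by the trimmed mean of log ratios) and Benjamini-Hochberg adjustment over all 401 detected genes. This test compares 2 libraries of 1 group, and its error is counting error alone. Of all detected genes, 50.9% differed at an adjusted p under 0.05, with 28.2% higher and 22.7% lower in replicate 2. In the family 3 of 6 genes differed, 2 higher and 1 lower in replicate 2, a share close to that background. The median absolute log2 difference was 0.18 in the family and 0.33 over all detected genes.

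Mir195a was 2.38-fold higher in replicate 2 (exact 95% interval 2.29 to 2.48), with an adjusted exact binomial p too small for double precision to represent. By absolute log2 difference it ranked 32 of the 401 detected genes. Mir497 was 1.16-fold higher (1.10 to 1.22, adjusted exact binomial p = 4.4e-08), which is less than the median difference of detected genes, 1.26-fold. Mir15a was 1.19-fold lower in replicate 2, a ratio of 0.840 (0.778 to 0.906, adjusted exact binomial p = 1.82e-05).

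The other 3 genes did not pass the test, and their intervals bound the difference. The ratio of replicate 2 to replicate 1 was 1.01 for Mir16-1 (0.928 to 1.10), 0.899 for Mir15b (0.793 to 1.02) and 0.967 for Mir16-2 (0.789 to 1.19). The sum of the family was 1.56-fold higher in replicate 2, a difference of 1890 CPM, to which Mir195a gave 1796 CPM. Without Mir195a the remaining 5 genes summed to 2131 and 2225 CPM, a ratio of 1.04.

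**Figure D3:**
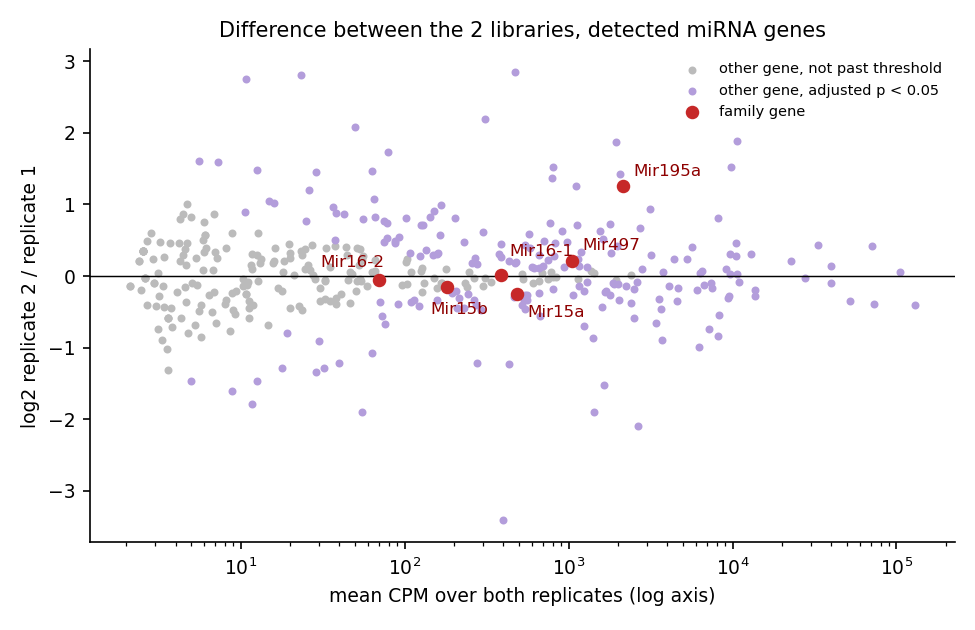
Log2 ratio of replicate 2 to replicate 1 (y axis) against mean CPM (x axis, log) for the 401 detected miRNA genes, where purple marks an adjusted exact binomial p under 0.05, grey the rest and red the 6 family genes. Mir195a, 2.38-fold higher in replicate 2, stands apart from the other 5 family genes, which lie between 0.840 and 1.16 in ratio.

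Markers of cell types that could contribute to the tissue also differed between the libraries. The 12 neuronal markers had a sum of 33052 CPM in replicate 1 and of 47686 CPM in replicate 2, with 6 of 12 higher in replicate 2, and Mir124a-3 was at 0 in replicate 1 and Mir124a-2 in replicate 2. Most of that difference was Mir128-1, at 4518 and 16906 CPM, while Mir138-1 was lower in replicate 2, at 4809 and 2633 CPM. The leukocyte and microglial markers summed to 676 and 1100 CPM, with 3 of 4 higher, and the mural and smooth muscle markers to 6456 and 6935 CPM, with 2 of 2 higher. In contrast, the sums were lower in replicate 2 for erythrocytes, 1922 and 1149 CPM with 2 of 3 members higher, for the endothelial Mir126a, 14889 and 12474 CPM, and for oligodendrocytes, 4367 and 2683 CPM with 0 of 3 higher. The erythrocyte difference came from Mir451a alone, at 1807 and 1007 CPM, as Mir144 and Mir486 were higher in replicate 2. The oligodendrocyte difference was mostly Mir219a-2, at 2447 and 865 CPM. No marker of these other lists was at 0. Multimapping reads are not in these values, so a marker made at several loci is shown by its placed reads only. The part of these cell types in the difference of Mir195a was not tested. In tissue RNA, a different number of cells of a type and a different amount of RNA per cell cannot be told apart.

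Genes with the most similar levels were sought by the distance between log2(CPM + 1) values over the 2 libraries, leaving out the family itself. The nearest to Mir195a was Mir128-2, at 1113 and 3034 CPM in replicates 1 and 2 (distance 0.18), followed by Mir874 at 1333 and 2252 CPM. Mir497 was nearest to Mir423 and Mir222, Mir15a to Mir672 and Mir134, and Mir16-1 to Mir106b and Mir125b-2. Mir218-2 and Mir873a were nearest to Mir15b. Mir16-2 was nearest to Mir449a and to a row annotated as Snord43. With 2 libraries this describes level and direction of placed reads only.

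The family belongs to a wider group defined by the core AGCAGC, which starts at base 1 or base 2 of a mature strand. Such a core was found in 15 of 1058 genes (1.42%), the 6 family genes and 9 others. The most abundant of the others, Mir107 and Mir322, are shown with Mir503, the neighbour of Mir322 on chromosome X. Bases 2 to 8 are in capitals, and the earlier start of the core gives miR-107-3p other bases there.
miR-107-3p, from Mir107: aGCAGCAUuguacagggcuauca
miR-322-5p, from Mir322: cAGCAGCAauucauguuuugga
miR-503-5p, from Mir503: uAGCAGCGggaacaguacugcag

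Mir322, the mouse counterpart of human miR-424, carries the family seed itself, whereas miR-503-5p differs in the last base of the seed. Mir322 had 1949 and 2893 counts in replicates 1 and 2, or 839 CPM (803 to 877) and 847 CPM (817 to 879). Its levels in the libraries were almost equal, with a ratio of 0.992 (0.937 to 1.05) and an adjusted exact binomial p of 0.875. Its cluster partner Mir503 was far lower, at 10.3 ± 0.0580 CPM (SD, n = 2). With Mir322 included, the 11 genes that share the seed summed to 4229 and 6127 CPM, of which the 6 family genes gave 80.1% and 86.2%. The sums pool both arms of each hairpin and leave out multimapping reads, so they are not amounts of mature strands with this seed. Of these 11 genes, 7 were detected. Mir195b had 1 count in each library, and Mir6342, Mir6353 and Mir6419 had 0 counts, for which a floor of 3 counts equals 1.29 CPM in replicate 1 and, at its greater depth, 0.879 CPM in replicate 2, while the upper Wilson limits are 1.65 and 1.13 CPM.

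Mir107, which lies among the genes whose core starts at base 1, differed between the libraries in the opposite direction to Mir195a. It had 9914 counts, or 4269 CPM (4186 to 4353), in replicate 1 and 3485 counts, or 1021 CPM (987 to 1055), in replicate 2. By placed reads, Mir107 thus exceeded Mir195a 3.39-fold in replicate 1 and lay below it 2.99-fold in replicate 2. Multimapping reads are not in these counts, and how many of them came from Mir107 was not measured. Mir103-2 was at 25.4 and 10.5 CPM, and Mir103-1 had 14 and 2 counts. The mature miR-103-3p is made from both Mir103 genes, so their counts carry the same uncertainty as those of the Mir16 genes.

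**Figure D4:**
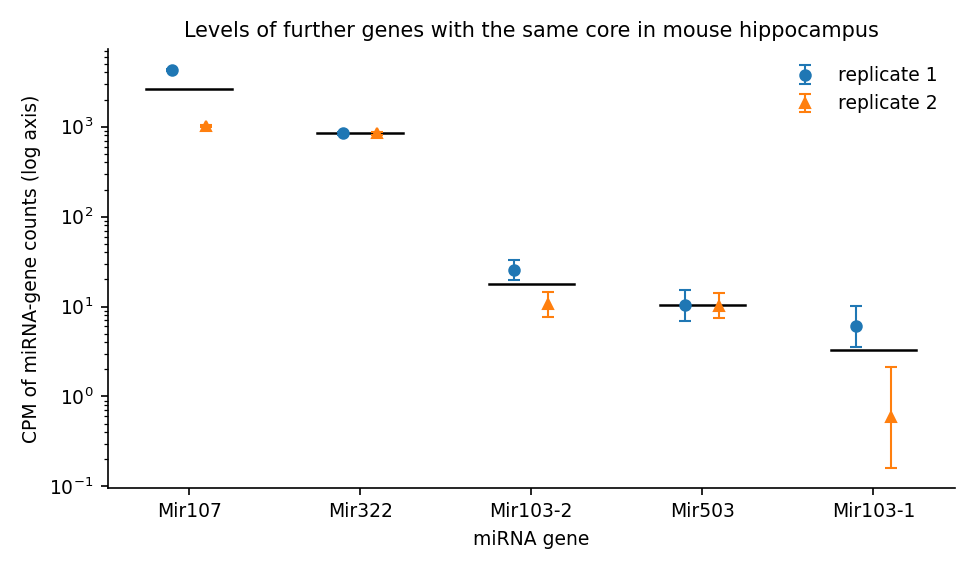
Level in CPM of miRNA-gene counts (log axis) of 5 further genes with the AGCAGC core in replicate 1 (circles) and replicate 2 (triangles), with Wilson 95% intervals and the mean as a black line. The replicates of Mir322 coincide near 843 CPM, while those of Mir107 lie at 4269 and 1021 CPM. Multimapping reads are not in these counts.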

How the data were processed

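Small RNA libraries (fragments under 30 nt, per the labels) came from 2 hippocampus samples. The authors deposited raw counts per miRNA gene in 1 table per library, unnormalized, for both strands, the gene's strand and the opposite strand. Assembly mm10 and GENCODE M21 are named per the labels and the deposited file descriptions. Aligner and counter: not given in the sources used here. The 4 rows naming no gene held 63.9% and 65.9% of reads of replicates 1 and 2 and stayed out of totals. Same-strand counts were scaled to 1000000 per library.

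Libraries were compared with edgeR 4.0.16 TMM factors (R 4.3.3) of 0.991 and 1.01, computed over detected genes, and exact binomial tests (scipy 1.17.1), Benjamini-Hochberg adjusted and checked on simulated data. Log2 ratios used 0.5 added to each count. A step in the order of levels was called wider than the spread when it had the same direction in both libraries and exceeded 2 SD of the log2 ratio. DESeq2 1.42.0 gave alternative size factors. Named genes were the members, opposite-strand miRNA genes, the AGCAGC group with counts and the 2 nearest genes per member. Genes named for 0 counts (Mir6342, Mir6353 and Mir6419), the marker genes and Mir3075 were added with their values in view. The members, lists and rules were chosen with earlier results of these data known.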

Additional observations from a re-analysis of the deposited data

Results flagged for a closer look

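Mir497b, annotated on the opposite strand of Mir497, had 2245 counts in replicate 1 and 3902 in replicate 2 in the column of opposite-strand counts, which no comparison above uses. Both values exceed 3 counts, the upper limit for a gene at 0. However, they equal the same-strand counts in each library of Mir497, which Mir497b covers in full. Mir497b had 0 same-strand counts in both libraries, so these values give no level for Mir497b. The 6 family genes had 0 counts in the opposite-strand column.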

How the results depend on the processing

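Mir497 depends on the strand column. With the unstranded column it was at 0 CPM, the log2 ratio of Mir195a to Mir497 was 13.43 (0.5 added to each count), and 5 of 6 family genes could be tested, of which 2 differed. The other 5 genes had identical counts in that column. Its smaller total raised Mir15a to 525 CPM, Mir16-1 to 418 CPM, Mir15b to 194.5 CPM, Mir16-2 to 75.2 CPM and Mir195a to 2329 CPM. Likewise Mir322 rose to 910 CPM and Mir503 to 11.1 CPM. Without counts of Mir497 the family sum in that column was 3542 CPM. Scaled to 1000000 of all reads in place of miRNA-gene counts, the family sum was 1512, with Mir15a at 170.9, Mir16-1 at 136, Mir15b at 63.3, Mir16-2 at 24.4, Mir195a at 748 and Mir497 at 369. With the 5 most abundant genes left out of the total these became 7579, 858, 682, 318, 123, 3747 and 1852 CPM. Both changes rescale all genes of a library alike. Leaving out replicate 1 or replicate 2 gave a family sum of 5280 or 3390 CPM, Mir195a at 3055 or 1259 CPM, and log2 ratios of Mir195a to Mir497 of 1.42 or 0.38. With DESeq2 size factors the log2 difference of Mir16-1 turned to -0.016 (adjusted exact binomial p = 0.879). Its adjusted p ranged from 0.672 to 0.989 over the alternatives. The calls of Mir15a and Mir195a held under all 5 alternatives of the library comparison, that of Mir497 under the 4 that could test it, and Mir16-1, Mir15b and Mir16-2 passed under none. All genes that differed numbered 205 with plain totals, 198 with DESeq2 size factors, 197 of 299 at 10 CPM or more, 210 of 715 with any count and 184 in the unstranded column. The median absolute log2 ratio of all neighbouring pairs was 2.96, against 2.93 at 10 CPM or more, 2.81 at most 2 kb apart and 2.94 without genes that share a mature strand, an alternative added after seeing the data. Among the 6 family genes depth limits Mir16-2 most, whose 163 and 236 counts leave its ratio between 0.789 and 1.19, and Mir503, with 24 and 35 counts, has a wider interval of 0.564 to 1.71.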
